A study of Homo sapiens with 8 samples.

Results

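The ADAM and ADAMTS metalloproteases were followed through 8 RNA-seq libraries of human lung cancer lines that had received miR-29a-3p or a control microRNA. The 10 members were taken by gene name from a table of 31461 genes. They were the membrane-bound ADAM9, ADAM10, ADAM12, ADAM17 and ADAM19 and the secreted ADAMTS1, ADAMTS6, ADAMTS7, ADAMTS9 and ADAMTS10. The groups, with 2 libraries each, were A549 with miR-29a-3p, A549 with control, H1299 with miR-29a-3p and H1299 with control, all labelled wild type in genotype. Both are established human lines, A549 from a lung adenocarcinoma and H1299 from a large cell lung carcinoma. The study looked for possible targets of miR-29a-3p. The labels do not state whether the libraries of a group were grown separately. The p-values therefore describe only how these libraries scatter, which may be technical.

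ADAMs are zinc proteases anchored in the cell membrane that release the outer parts of other membrane proteins, a process called shedding. ADAMTS proteases carry thrombospondin repeats in place of the membrane anchor, are secreted, and cut proteoglycans and other matrix proteins or bind to microfibrils. A microRNA pairs through its seed, bases 2 to 8, with matching letters in the 3′ untranslated region (UTR) of an mRNA, which then tends to be less stable. miR-29 is known for repressing collagens and other matrix genes.

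The transfected microRNA and its family members are shown because their shared seed sets the letters searched for in each member. The mature sequences are from RefSeq (GRCh38.p14), with the seed in capitals.
hsa-miR-29a-3p: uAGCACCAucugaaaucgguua
hsa-miR-29b-3p: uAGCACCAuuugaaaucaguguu
hsa-miR-29c-3p: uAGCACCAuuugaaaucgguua

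An 8mer match reads TGGTGCTA, a 7mer-m8 match TGGTGCT, a 7mer-A1 match GGTGCTA and a 6mer match GGTGCT, and each match was counted once, as the longest of these, on the mRNA strand only. In the longest annotated 3′ UTR (GENCODE release 29), 6 of the 10 members held an 8mer or 7mer-m8 match, against 16.4% of the 11632 tested genes with such a UTR. An 8mer was present in ADAMTS6, ADAMTS7, ADAMTS9 and ADAMTS10, against 3.4% of those genes. ADAM12 and ADAMTS6, which hold matches, are not among the tested genes. The median UTR of the tested genes was 1355 bases. Of the members with a match, ADAM12 (4898), ADAM19 (3645), ADAMTS6 (3100) and ADAMTS9 (1473) were longer. ADAMTS7 (218) and ADAMTS10 (651) were shorter. Length was not taken into account, and enrichment was not tested. ADAM12 and ADAM19 held 2 7mer-m8 matches each, and ADAMTS6 held 1 beside its 8mer. No match of any of the 4 kinds was found in ADAM9, ADAM10, ADAM17 or ADAMTS1, although the ADAM10 UTR, at 8740 bases, was the longest of the 10. The ADAMTS7 UTR was the shortest, at 218 bases, and its 8mer began close to the stop codon. The sites below are given as 22 bases on the mRNA strand, with the matching letters in capitals and GRCh38 positions. They are shown so that the values of each member can be read against its match.
ADAM12 7mer-m8 (chr10:126017113-126017134, minus strand): gctgtgctgtgctaTGGTGCTc
ADAM12 7mer-m8 (chr10:126014242-126014263, minus strand): tgctaaaaagagccTGGTGCTg
ADAM19 7mer-m8 (chr5:157480110-157480131, minus strand): ctccctctaatgtgTGGTGCTt
ADAM19 7mer-m8 (chr5:157479541-157479562, minus strand): gaaggagggccgtgTGGTGCTt
ADAMTS6 7mer-m8 (chr5:65150153-65150174, minus strand): acttgattccatcaTGGTGCTc
ADAMTS6 8mer (chr5:65149752-65149773, minus strand): aagaacagttaactTGGTGCTA
ADAMTS7 8mer (chr15:78759331-78759352, minus strand): cccctgcgccctaaTGGTGCTA
ADAMTS9 8mer (chr3:64516540-64516561, minus strand): aaaatatgctgcctTGGTGCTA
ADAMTS10 8mer (chr19:8580321-8580342, minus strand): aggccaccccctcaTGGTGCTA

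A match in one annotated UTR need not be in every transcript of a gene. An 8mer or 7mer-m8 match stood in 1 of 2 coding transcripts of ADAM12, 1 of 3 of ADAM19, 2 of 4 of ADAMTS9 and 2 of 3 of ADAMTS10. ADAMTS6 and ADAMTS7 each had 1 coding transcript with a 3′ UTR, and it held the match. Which transcripts the cells used was not analysed here.

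**Figure D1:**
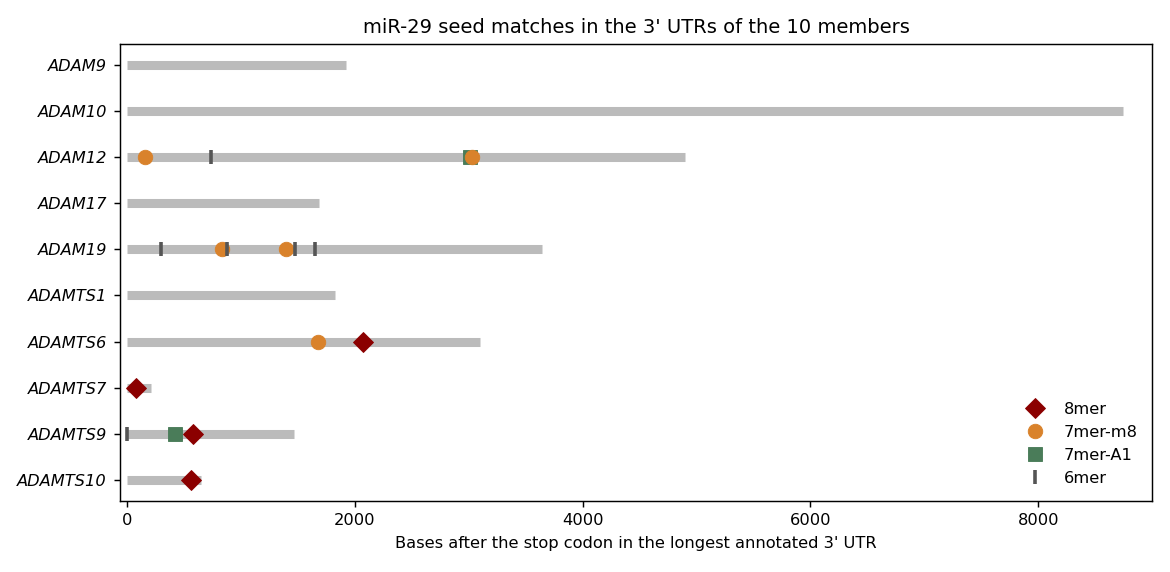
Position of miR-29 seed matches in the longest annotated 3′ UTR of each member. Grey bars run from the stop codon to the end of the UTR in bases, and symbols mark 8mer, 7mer-m8, 7mer-A1 and 6mer matches. ADAM9, ADAM10, ADAM17 and ADAMTS1 carry no symbol.

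Depth, estimated from the step between low values, was 12221310 to 15614821 fragments per library, with 12021 to 12837 genes at 1 FPKM or more (fragments per kilobase of transcript, scaled to library depth). The marker genes lay opposite to the line labels. CDKN2A, which is deleted in A549, averaged 24.3 FPKM in the controls labelled A549 and 0.0818 FPKM in those labelled H1299, and 6 of 7 A549 markers were higher in both controls labelled H1299 than in both labelled A549. Lines are therefore called by their labels, and which line a response belongs to cannot be said beyond the label. The lung cancer epithelial markers KRT8 and KRT18 were present in all groups, while EPCAM averaged 0.106 FPKM or less in each. The summed level of 4 fibroblast markers was 2.40 and 2.54 FPKM with miR-29a-3p and 1.04 and 1.11 FPKM with control in the libraries labelled H1299, with LUM the highest of them and PDGFRB at 0.038 FPKM or less. Labelled A549, that sum was 0.11 to 0.172 FPKM with miR-29a-3p and 0.106 to 0.169 FPKM with control. Its part in the results was not tested. In such bulk RNA, fewer cells of a type and less RNA per cell cannot be told apart. Leukocyte and endothelial markers each summed to less than 1 FPKM in every library, although the leukocyte sum also differed (0.968 and 0.995 FPKM with miR-29a-3p, 0.498 and 0.552 FPKM with control, labelled H1299). Nearly all of that was CD14, with PTPRC and CD3E at 0.00941 FPKM or less, and its part was not tested.

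Of the 10 members, 7 had 1 FPKM or more in 2 or more libraries and were tested. ADAM12, ADAMTS1 and ADAMTS6 did not and are too low to judge in either line. ADAMTS7, ADAMTS9 and ADAMTS10 stayed under 1 FPKM in all 4 libraries labelled A549, so they are too low to judge there. ADAM9, ADAM10, ADAM17 and ADAM19 remain for that line, and ADAM19 reached 1 FPKM there in a single library. ADAM12 likewise reached 1 FPKM in a single library labelled H1299. Its estimated fragments in that line were 75 to 121, against 35 to 86 for ADAM19 labelled A549. The filter rather than the level thus separates these cases. Changes below are differences of log2(FPKM + 1) from limma, a linear model with a moderated variance, and each adjusted p is limma's with Benjamini-Hochberg adjustment over all 14635 genes tested. The scale understates the change of low genes.

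After miR-29a-3p, ADAM17 fell and ADAMTS7 and ADAMTS9 rose in the libraries labelled H1299, with smaller falls of ADAM19 and ADAM9. In those libraries 2 of the 7 tested members were called higher and 3 lower at an adjusted p under 0.05. Of these, ADAMTS7 passed the filter only through the libraries with miR-29a-3p of that label, where it was high. A difference was thus built into its being tested and counted. The background in that line was high, with 50.0% of all tested genes called, 25.1% higher and 24.8% lower, against which the 5 of 7 members are to be read. In the libraries labelled A549, 0 of the 7 tested members were called by limma, and 1 had an unadjusted p under 0.05. Over all tested genes, 16.0% were called there (7.30% higher, 8.66% lower). That count of members and their median labelled A549 include ADAMTS7, ADAMTS9 and ADAMTS10. These are too low to judge there, and the scale understates their change, so their not being called does not show a lack of response. The median change of the 7 members was 0.0040 labelled H1299 and -0.0077 labelled A549, against 0.0012 and 0.0014 over all tested genes. The response itself differed between lines for 3 of the 7 (A549 minus H1299, 1 higher, 2 lower), where 37.3% of all tested genes did (18.1% higher, 19.2% lower). The 2 lower ones, ADAMTS7 and ADAMTS9, passed the filter only through libraries labelled H1299 and are too low to judge labelled A549. On log2(FPKM + 0.1) the count was 2, without ADAMTS9.

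**Figure D2:**
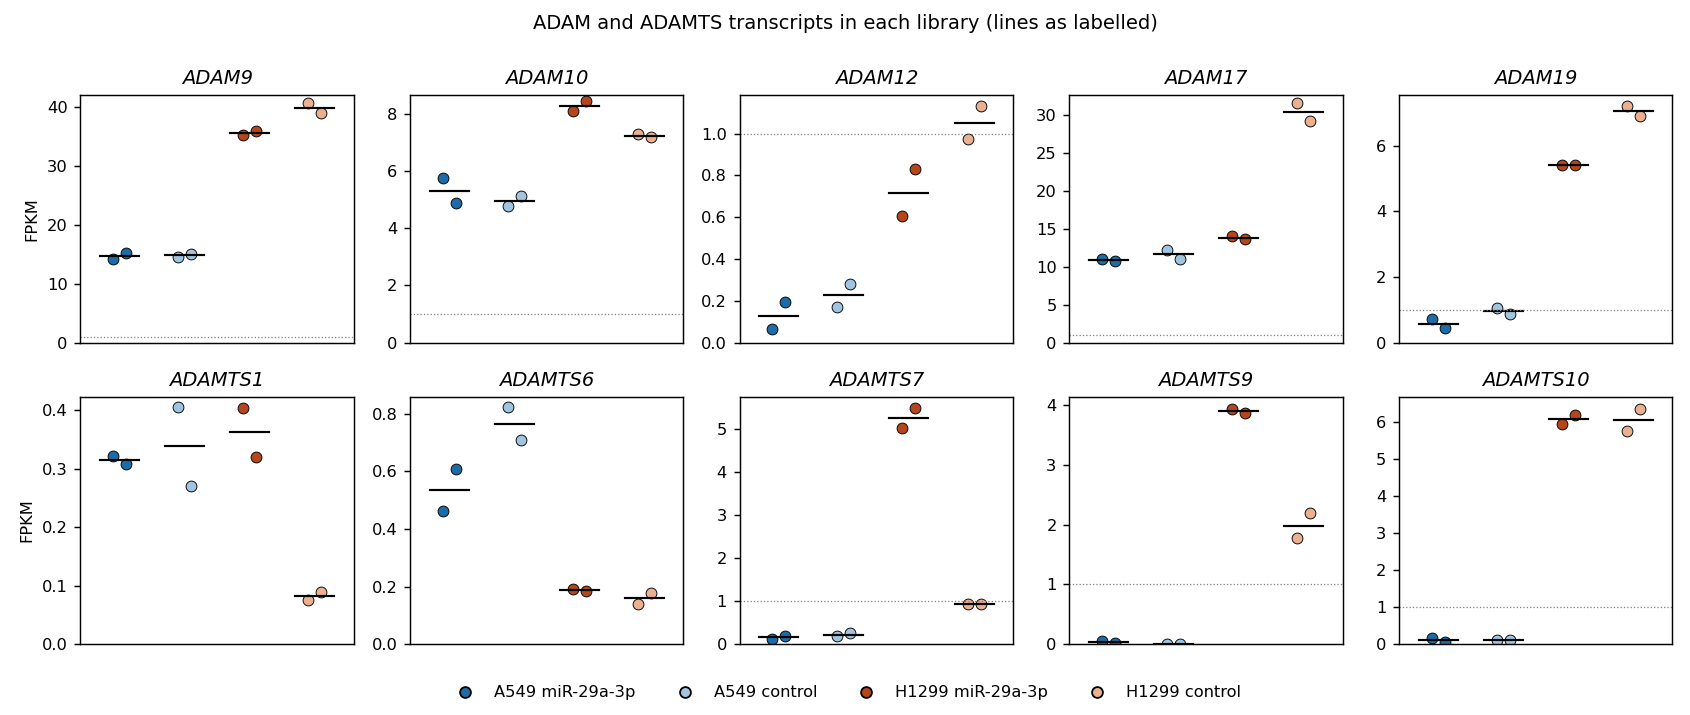
FPKM of each member in each of the 8 libraries, one panel per gene with its own linear axis from 0. Points are libraries, short lines are group means, and the dotted line marks 1 FPKM where it lies within the axis. ADAM17 at 13.6 and 14.0 FPKM with miR-29a-3p, below 29.1 and 31.5 FPKM with control, and ADAMTS7 at 5.01 and 5.47 FPKM, above 0.921 and 0.929 FPKM, are both labelled H1299.

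The main shedding enzymes are ADAM17 and ADAM10. ADAM17 (ENSG00000151694, chromosome 2, 9488486 to 9556732 on GRCh38, minus strand) releases tumour necrosis factor and several ligands of the epidermal growth factor receptor. It stood at 14.0 and 13.6 FPKM with miR-29a-3p and at 31.5 and 29.1 FPKM with control in the libraries labelled H1299. The groups lay far apart, and the ratio of their means was 0.454. The log2 change was -1.08 ± 0.066 (SE, adjusted p = 5.9e-05, n = 2 libraries each). Labelled A549, the ADAM17 levels overlapped, at 11.0 and 10.7 FPKM with miR-29a-3p and 12.2 and 11.0 FPKM with control. The change there was -0.09, with a 95% interval of -0.25 to 0.07 (adjusted p = 0.43). The responses differed between the lines by 0.997 ± 0.093 (A549 minus H1299, SE, limma adjusted p = 0.00059). After miR-29a-3p, the level labelled H1299 (13.8 ± 0.31 FPKM) lay nearer to that labelled A549 (10.9 ± 0.20 FPKM, SD, n = 2 each) than the controls did to each other.

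ADAM17 has no seed match in its longest annotated 3′ UTR. IAH1, a gene on the opposite strand, shares 12.3% of the ADAM17 exon bases, and without a stated strand setting fragments there cannot be told apart. IAH1 itself was at 3.73 and 3.84 FPKM with miR-29a-3p and 3.98 and 4.21 FPKM with control in the libraries labelled H1299. These values can hold the same shared fragments, and the part of the overlap in the ADAM17 levels was not tested.

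ADAM10 (ENSG00000137845, chromosome 15, 58588807 to 58749978, minus strand), the enzyme that makes the first activating cut in Notch receptors, did not pass the test in either line. With miR-29a-3p it was at 8.10 and 8.48 FPKM, and with control at 7.30 and 7.19 FPKM, in the libraries labelled H1299. These groups did not overlap, a pattern that 38.5% of all tested genes showed in that line with miR-29a-3p higher. The change was 0.17, with a 95% interval of -0.01 to 0.36 (adjusted p = 0.11). Labelled A549, the levels overlapped, at 5.75 and 4.89 FPKM with miR-29a-3p and 4.80 and 5.14 FPKM with control, with a change of 0.08 and an interval of -0.11 to 0.26 (adjusted p = 0.54).

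The mRNA levels of ADAM17 and ADAM10 can be compared within a library, because FPKM is scaled to length. The comparison depends on which transcripts were used, which was not analysed, and protein was not measured. The ratio of ADAM17 to ADAM10 was 1.73 and 1.60 with miR-29a-3p and 4.31 and 4.05 with control in the libraries labelled H1299. In those labelled A549 it was 1.91 and 2.19 with miR-29a-3p and 2.55 and 2.13 with control, and the groups overlapped. The controls labelled H1299 thus held the highest ratios of the 8 libraries.

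ADAM9 (ENSG00000168615, chromosome 8, 38996869 to 39105144, plus strand), another sheddase, had the highest level of the 10 members in every group. Its levels labelled H1299 were 35.2 and 36.0 FPKM with miR-29a-3p and 40.7 and 39.1 FPKM with control. The groups did not overlap, as for 37.4% of all tested genes with miR-29a-3p lower in that line. The log2 change was -0.16 ± 0.050 (SE, adjusted p = 0.038). This call is fragile: the adjusted p was 0.051 with no filter on low values, 0.081 with rescaled libraries, and from 0.033 to 0.16 when single libraries were left out. It missed the threshold without any one of the 4 libraries labelled H1299 and without either control labelled A549. Labelled A549, ADAM9 was at 14.2 and 15.2 FPKM with miR-29a-3p and 14.6 and 15.0 FPKM with control. These groups overlapped fully, with a change of -0.01 and a 95% interval of -0.13 to 0.11 (adjusted p = 0.95).

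ADAM19 (ENSG00000135074, chromosome 5, 157395534 to 157575775, minus strand), also called meltrin beta and able to shed neuregulin, lay lower with miR-29a-3p in both lines. Both libraries labelled H1299 with miR-29a-3p were at 5.40 FPKM, and the controls of that label were at 7.20 and 6.91 FPKM. The log2 change was -0.33 ± 0.096 (SE, adjusted p = 0.028). That call was lost on log2(FPKM + 0.1) (adjusted p = 0.16), when low genes were kept (adjusted p = 0.062) and without any one of the 4 libraries labelled H1299 (adjusted p = 0.077 to 0.11). Labelled A549, ADAM19 was at 0.715 and 0.434 FPKM with miR-29a-3p and at 1.04 and 0.882 FPKM with control. The groups did not overlap, as for 29.2% of all tested genes with miR-29a-3p lower in that line, and the change was -0.32 ± 0.096 (SE, adjusted p = 0.072). It passed only without A549 miR-29a-3p replicate 1 (adjusted p = 0.037). The difference between the responses was 0.01, with a 95% interval of -0.32 to 0.34 (adjusted p = 0.95). Its 3′ UTR holds both 7mer-m8 matches shown above, and CYFIP2 overlaps 0.8% of its exon bases on the opposite strand. CYFIP2 was at 14.2 and 14.3 FPKM with miR-29a-3p and 3.90 and 4.13 FPKM with control labelled H1299. The part of this overlap in the ADAM19 levels was not tested.

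ADAM12 (ENSG00000148848, chromosome 10, 126012381 to 126388455, minus strand), or meltrin alpha, known for its part in cell fusion and in cutting growth factor binding proteins, was too low to judge. It was at 0.606 and 0.829 FPKM with miR-29a-3p and at 0.975 and 1.13 FPKM with control in the libraries labelled H1299. These groups did not overlap. Of the tested genes, which do not include ADAM12, 37.4% did so with miR-29a-3p lower in that line. The 4 values labelled A549 were lower still, at 0.0634 and 0.192 with miR-29a-3p and 0.171 and 0.282 with control. With no filter on low values, over 31461 genes, its change was -0.26 labelled H1299 (limma adjusted p = 0.15) and -0.12 labelled A549 (limma adjusted p = 0.61).

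Among the secreted members, ADAMTS7 (ENSG00000136378, chromosome 15, 78759203 to 78811431, minus strand), which cuts cartilage oligomeric matrix protein, had the largest change of the 7 tested members. It was at 5.01 and 5.47 FPKM with miR-29a-3p and at 0.929 and 0.921 FPKM with control in the libraries labelled H1299. The ratio of the means was 5.66, and the log2 change was 1.70 ± 0.074 (SE, adjusted p = 1.9e-05). ADAMTS7 passed the filter only through the libraries where it was high, so a difference was built into its being tested, and it was not tested when either of these libraries was left out. Its estimated fragments, about 427 and 468 with miR-29a-3p and 80 and 62 with control, show that it was also sampled in the controls. Labelled A549, it was at 0.124 and 0.188 FPKM with miR-29a-3p and 0.182 and 0.261 FPKM with control, too low to judge.

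ADAMTS7, with its 8mer match, has pseudogene copies, so its level is uncertain where fragments were split among them. ADAMTS7P3 was at 0.411 and 0.589 FPKM with miR-29a-3p and at 0.049 and 0.146 FPKM with control in the libraries labelled H1299, and ADAMTS7P1 and ADAMTS7P4 stayed under 0.05 FPKM there. The difference between the ADAMTS7 responses was -1.77 ± 0.104 (A549 minus H1299, SE, adjusted p = 0.00013), with the A549 part resting on levels under 1 FPKM.

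ADAMTS9 and ADAMTS1 are proteoglycanases that cut versican and aggrecan. ADAMTS9 (ENSG00000163638, chromosome 3, 64515654 to 64688000, minus strand) was at 3.94 and 3.86 FPKM with miR-29a-3p and at 1.78 and 2.19 FPKM with control in the libraries labelled H1299. The groups did not overlap, as for 38.5% of all tested genes with miR-29a-3p higher in that line. The ratio of the means was 1.97, and the log2 change was 0.72 ± 0.082 (SE, adjusted p = 0.00062). ADAMTS9 also carries an 8mer match, and the antisense gene ADAMTS9-AS1 shares 1.6% of its exon bases. Labelled A549, it was near 0, at 0.0502 and 0.0203 FPKM with miR-29a-3p and at 0.00491 and 0 FPKM with control. The difference between the responses was -0.67 ± 0.116 (A549 minus H1299, SE, adjusted p = 0.0057), and on log2(FPKM + 0.1) it was -0.56 (adjusted p = 0.16).

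ADAMTS1 (ENSG00000154734, chromosome 21, 26835747 to 26845409, minus strand) was too low to judge, although its groups lay apart in one line. It was at 0.404 and 0.320 FPKM with miR-29a-3p and at 0.0757 and 0.0892 FPKM with control, about 33 and 26 estimated fragments against 6 in each control, in the libraries labelled H1299. Such a separation, with miR-29a-3p higher, was seen in 38.5% of all tested genes in that line. ADAMTS1 is not among the tested genes, and the share for genes as low was not computed. With no filter on low values the log2 change of ADAMTS1 was 0.33 (limma adjusted p = 0.014). Labelled A549, it was at 0.321 and 0.308 FPKM with miR-29a-3p and at 0.406 and 0.270 FPKM with control, which overlapped.

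ADAMTS10 and ADAMTS6 are close relatives tied to fibrillin microfibrils. ADAMTS10 (ENSG00000142303, chromosome 19, 8580242 to 8610735, minus strand) was at 5.95 and 6.21 FPKM with miR-29a-3p and at 5.76 and 6.37 FPKM with control in the libraries labelled H1299. The control values lay on either side of the others, and the change was 0.00 with a 95% interval of -0.18 to 0.19 (adjusted p = 0.98). The interval excludes a fall as large as that of ADAM17. ADAMTS10 holds an 8mer match. Its 4 values labelled A549 ranged from 0.0652 to 0.168 FPKM.

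ADAMTS6 (ENSG00000049192, chromosome 5, 65148736 to 65481920, minus strand) was the 1 member whose levels were higher in all libraries labelled A549 than in all labelled H1299. It was at 0.462 and 0.608 FPKM with miR-29a-3p and at 0.824 and 0.707 FPKM with control in the libraries labelled A549. Those groups did not overlap, as for 29.2% of all tested genes with miR-29a-3p lower in that line. ADAMTS6 itself is not among the tested genes, and the share for genes as low was not computed. With no filter on low values the change was -0.20 (limma adjusted p = 0.17). The libraries labelled H1299 held 0.193 and 0.183 FPKM with miR-29a-3p and 0.140 and 0.179 FPKM with control. These did not overlap either, with miR-29a-3p higher, as for 38.5% of all tested genes in that line.

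**Figure D3:**
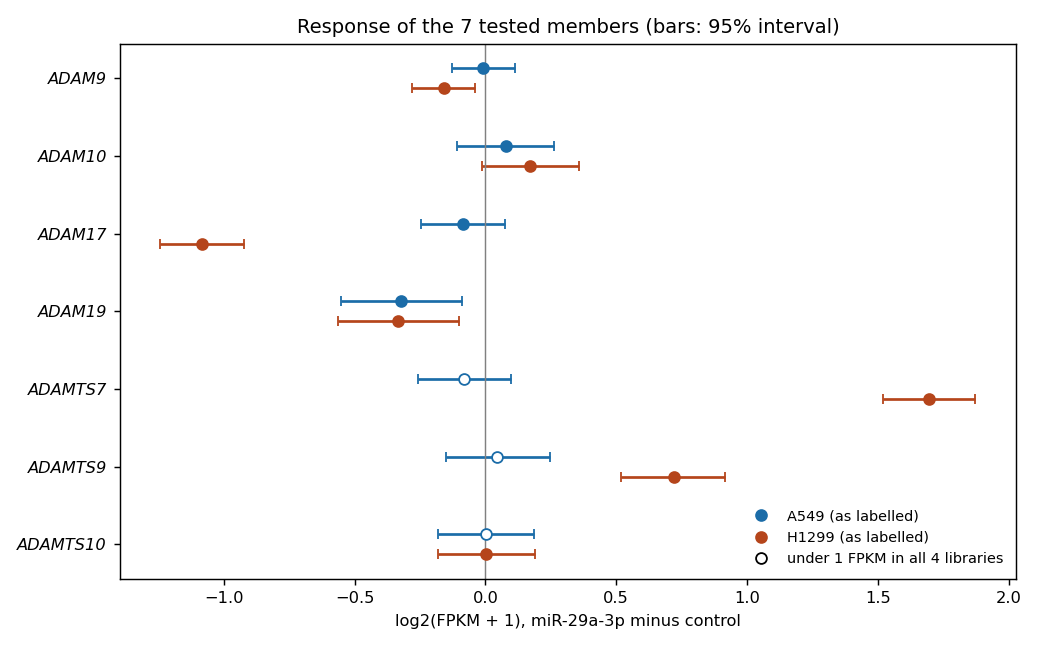
Difference of log2(FPKM + 1), miR-29a-3p minus control, for the 7 tested members in each line as labelled, with 95% intervals from limma. Open points mark members under 1 FPKM in all 4 libraries of that line. The intervals of ADAM17, ADAMTS7 and ADAMTS9 labelled H1299 lie apart from those labelled A549.

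The members with a match did not share a direction. In the libraries labelled H1299, of the 4 tested members with an 8mer or 7mer-m8 match, ADAM19 was called lower, ADAMTS7 and ADAMTS9 were called higher, and ADAMTS10 did not pass. Of the 3 tested members without a match, ADAM17 and ADAM9 were called lower and ADAM10 did not pass. These are descriptions of single genes, and no test was made over the members.

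Without miR-29a-3p, the controls labelled A549 and H1299 differed in these proteases. All 7 tested members were called lower in the controls labelled A549, where 74.8% of all tested genes were called, 29.8% lower and 45.0% higher. ADAMTS7, ADAMTS9 and ADAMTS10 passed the filter only through libraries labelled H1299, so being lower labelled A549 was built into their being tested. This holds for ADAM19 as well, which reached 1 FPKM in a single library labelled A549 and needed libraries labelled H1299 to pass. Of the members under the filter, ADAMTS6 and ADAMTS1 lay the other way with low genes kept, by 0.61 and 0.30 (limma adjusted p = 0.00084 and 0.010), and ADAM12 was at -0.74 (limma adjusted p = 0.0021). Among the ADAMs, the A549-labelled level against the H1299-labelled level was 14.8 ± 0.25 against 39.9 ± 1.1 FPKM for ADAM9, 11.6 ± 0.88 against 30.3 ± 1.7 FPKM for ADAM17, and 4.97 ± 0.24 against 7.24 ± 0.083 FPKM for ADAM10 (SD, n = 2 each). ADAM19 was at 0.960 ± 0.11 FPKM labelled A549 and 7.06 ± 0.20 FPKM labelled H1299. The 3 tested secreted members were low in the controls labelled A549, with ADAMTS10 at 0.114 ± 0.0059 FPKM labelled A549 and 6.07 ± 0.43 FPKM labelled H1299 (SD, n = 2 each). The log2 differences (A549 minus H1299) ranged from -2.66 for ADAMTS10 to -0.47 for ADAM10 (limma adjusted p = 4.7e-07 to 0.0015). On log2(FPKM + 0.1) the differences of the lowest members were larger, at -4.84 for ADAMTS10, -4.34 for ADAMTS9 and -1.68 for ADAMTS7, against -2.66, -1.57 and -0.66. Rescaling the libraries shifted the median difference of all tested genes by -0.13 and left the members between -2.73 and -0.61.

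Within each group, the order of the highest members was the same, with ADAM9 above ADAM17 and ADAM17 above ADAM10. Next came ADAMTS10 (6.08 FPKM) with miR-29a-3p and ADAM19 (7.06 FPKM) with control in the libraries labelled H1299. In both groups labelled A549 the next was ADAM19 (0.574 FPKM with miR-29a-3p, 0.960 FPKM with control). Across groups, ADAM9, ADAM12, ADAM17 and ADAM19 were highest in the controls labelled H1299, and ADAM10, ADAMTS1, ADAMTS7, ADAMTS9 and ADAMTS10 in the libraries of that label with miR-29a-3p. For ADAMTS1 and ADAMTS10 the highest and the next group overlapped. ADAM9, ADAM10, ADAM12, ADAM17, ADAMTS1, ADAMTS7 and ADAMTS10 overlapped between the groups labelled A549.

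The genes whose pattern over the 4 group means was most like that of a called member were found among 6085 tested genes averaging at least 5 FPKM, by Euclidean distance of centred log2(FPKM + 1). Nearest to ADAM17 were PITPNA-AS1 (distance 0.105), HIBADH (0.133) and TRAF2 (0.150). Nearest to ADAMTS7 were PI3 (0.165), FDXR (0.248) and GPC1 (0.294), and nearest to ADAMTS9 were RPS27L (0.120), ZNF337 (0.140) and IRF2BP2 (0.173). ADAM9 lay closest to NCOA7 (0.083), FGD6 (0.091) and HIF1A (0.103), and ADAM19 to NOTCH3 (0.154), SNAP25 (0.175) and LGR4 (0.187).

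Other members of the families were mostly low. The counts of called genes in this and the following lists are read against 25.1% of all tested genes called higher and 24.8% lower labelled H1299, and 7.30% higher and 8.66% lower labelled A549. Of 11 further ADAM genes 4 were tested, and 3 were called higher and 0 lower in the libraries labelled H1299 (median change 0.54), with 1 higher and 0 lower in those labelled A549 (median 0.14). ADAM23, an integrin-binding member without protease activity, was at 8.89 ± 0.19 FPKM with miR-29a-3p and 2.60 ± 0.17 FPKM with control in the libraries labelled H1299 (SD, n = 2 each, limma adjusted p = 6.5e-05). ADAM15 rose in both lines, by 0.71 labelled H1299 and 0.22 labelled A549 (limma adjusted p = 0.00014 and 0.044). Of 20 further ADAMTS and ADAMTS-like genes 4 were tested, with 2 called higher and 0 lower labelled H1299 and 1 higher and 1 lower labelled A549. ADAMTS13, which cuts von Willebrand factor, was the 1 of these called in both lines, with changes of 0.39 labelled H1299 and 0.27 labelled A549 (limma adjusted p = 0.0025 and 0.034).

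Of 11 tested proteins that traffic or mature the ADAMs, 8 were called higher and 1 lower labelled H1299 (median 0.45), where 25.1% of all tested genes were called higher and 24.8% lower. Labelled A549, 0 were called higher and 1 lower (median 0.07), against 7.30% and 8.66% of all. FURIN, the convertase that removes ADAM prodomains, was at 51.0 ± 0.41 FPKM with miR-29a-3p and 27.9 ± 0.53 FPKM with control labelled H1299 (SD, n = 2 each, limma adjusted p = 0.00018). FRMD8, a partner of the inactive rhomboids that carry ADAM17 to the surface, rose by 0.45 there (limma adjusted p = 0.0080). Labelled A549, the FRMD8 change was -0.30 (limma adjusted p = 0.083), and its responses differed between lines (limma adjusted p = 0.0064). RHBDF1, one of those rhomboids, was also called in the libraries labelled H1299, while RHBDF2 stood at a change of -0.11 there (limma adjusted p = 0.29). TSPAN5 and TSPAN14, tetraspanins that escort ADAM10, changed by 0.71 and -1.09 in those libraries (limma adjusted p = 0.00041 and 0.023), and TSPAN5 by -0.34 labelled A549 (limma adjusted p = 0.028). The TSPAN14 libraries with miR-29a-3p lay far apart, at 3.44 and 1.30 FPKM, with controls at 5.89 and 5.75 FPKM.

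Of 5 tested inhibitors, 2 were called higher and 1 lower labelled H1299, and 1 higher and 0 lower labelled A549. The 3 of 5 called labelled H1299 stand beside 50.0% of all tested genes. TIMP1 was at 101 ± 0.12 FPKM with miR-29a-3p and 57.5 ± 2.3 FPKM with control labelled H1299 (SD, n = 2 each, limma adjusted p = 0.00011), and PAPLN, an inhibitor-like matrix protein, changed by -0.63 (limma adjusted p = 0.0059). Labelled A549, the PAPLN change was 0.37 (limma adjusted p = 0.094), and its responses differed between lines (limma adjusted p = 0.0058). TIMP2 stood at a change of -0.70 labelled H1299 (limma adjusted p = 0.055). TIMP3, the physiological inhibitor of ADAM17 and of several ADAMTS enzymes, was too low to be tested, at no more than 0.461 FPKM on average in any group.

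Substrates that ADAMs shed were called in both directions. Of 29 tested, 11 were higher and 11 lower labelled H1299 (median -0.07), and 5 higher and 5 lower labelled A549 (median -0.08). Over all tested genes, 50.0% were called labelled H1299 and 16.0% labelled A549. The growth factor ligands released by ADAM17 diverged in the libraries labelled H1299. AREG was at 11.8 ± 0.0042 FPKM with miR-29a-3p and 38.6 ± 0.27 FPKM with control, and EREG at 13.8 ± 1.1 FPKM with miR-29a-3p and 54.1 ± 1.6 FPKM with control (SD, n = 2 each). HBEGF changed by -1.06 and TGFA by 0.57 (limma adjusted p = 0.00015 and 0.00028). The levels of AREG and EREG did not pass in the libraries labelled A549 (limma adjusted p = 0.20 and 0.64), whereas HBEGF and TGFA fell there by 0.44 and 0.59 on the log2 scale (limma adjusted p = 0.019 and 0.0016).

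Further substrates were called in both lines. AXL, a receptor kinase, was at 51.0 ± 0.33 FPKM with miR-29a-3p and 144 ± 1.6 FPKM with control labelled H1299, and at 108 ± 3.6 FPKM with miR-29a-3p and 172 ± 0.59 FPKM with control labelled A549 (SD, n = 2 each). MET, another receptor kinase, also fell in both, by 0.30 labelled H1299 and 0.19 labelled A549 (limma adjusted p = 0.0026 and 0.046). ICAM1, SDC4, NOTCH1, DLL1 and TNFRSF1B rose in both lines, by 0.98, 0.43, 0.46, 0.70 and 0.66 labelled H1299 and by 0.85, 0.29, 0.44, 0.47 and 0.53 labelled A549 (limma adjusted p = 8.6e-05 to 0.049). TNFRSF1A moved apart, by 0.34 labelled H1299 and -0.65 labelled A549 (difference, limma adjusted p = 0.0016).

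Of 6 tested matrix substrates and binding partners of ADAMTS proteases, 4 were called higher and 2 lower labelled H1299 (median 0.25), and 0 higher and 4 lower labelled A549 (median -0.55). Over all tested genes, 25.1% were called higher and 24.8% lower labelled H1299, and 7.30% higher and 8.66% lower labelled A549. FBN1, the fibrillin that ADAMTS10 binds, was at 1.23 ± 0.046 FPKM with miR-29a-3p and 3.14 ± 0.00034 FPKM with control labelled H1299, and at 4.57 ± 0.0040 FPKM with miR-29a-3p and 12.0 ± 0.62 FPKM with control labelled A549 (SD, n = 2 each). FBN2 was lower in both lines, with changes of -0.18 labelled H1299 and -0.87 labelled A549 (limma adjusted p = 0.040 and 0.00068). VCAN and THBS1 were called higher labelled H1299 and lower labelled A549, with changes of 0.29 and -0.23 for VCAN and 1.06 and -1.21 for THBS1 (limma adjusted p = 0.0075 and 0.047, 0.00017 and 0.00079). VCAN stayed under 1 FPKM in every library labelled A549 and passed the filter only through libraries labelled H1299. Its call labelled A549, included in the count above, is thus at a level too low to judge. LTBP1 and FN1 were called higher labelled H1299, by 0.79 and 0.21. The LTBP1 responses differed between lines (limma adjusted p = 0.00052). For FN1 the difference was 0.01, with a 95% interval of -0.20 to 0.22 (limma adjusted p = 0.96).

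**Figure D4:**
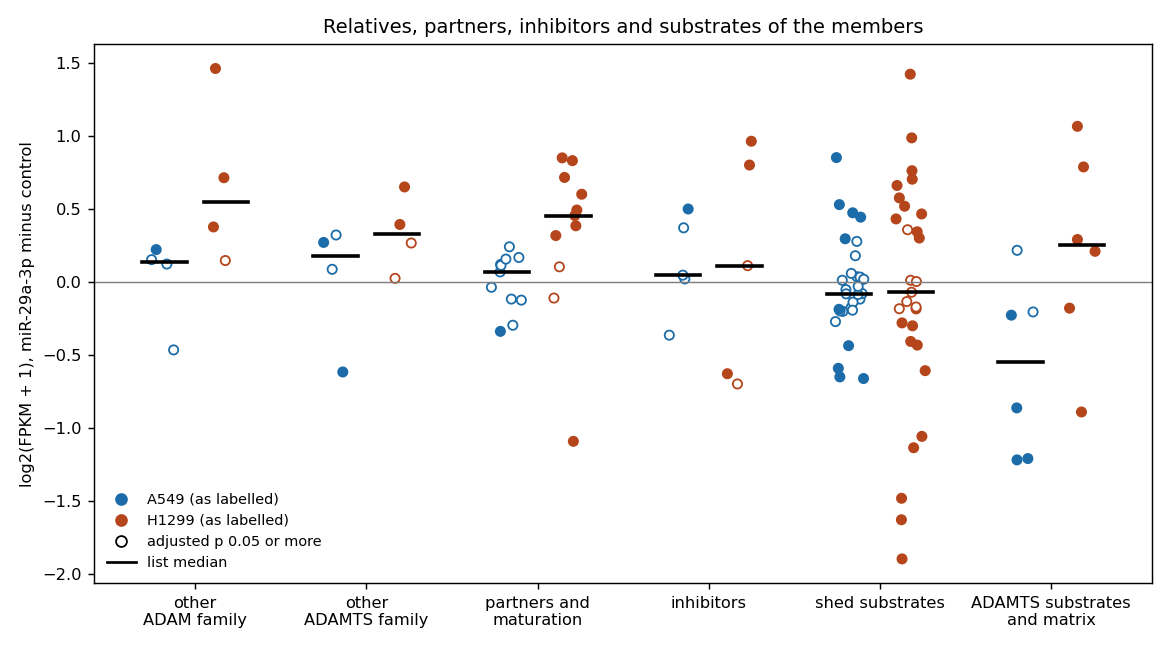
Differences of log2(FPKM + 1), miR-29a-3p minus control, for tested genes of 6 companion lists in each line as labelled. Filled points passed an adjusted p of 0.05, and black lines are list medians. In the libraries labelled H1299, 8 of 11 partners were called higher, and shed substrates were called in both directions. Over all tested genes, 25.1% were called higher and 24.8% lower there.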

How the data were processed

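RNA was measured in 8 libraries, and the labels' protocols name a VAHTS kit for library preparation. The authors deposited FPKM per gene and library, per the column headings of the file. StringTie and GRCh38 are named in the submitters' processing notes. Tool versions, the aligner, the annotation release and the strand setting are not stated in these sources. Columns were matched to samples by name, and genes present for a single line were set to 0 in the other.

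The FPKM were tested with limma 3.58.1 (R 4.3.3, variance trend) after the transform log2(FPKM + 1), keeping the 14635 genes that reached 1 FPKM in 2 or more of the 8 libraries. The model held 4 group means (4 residual and 2.36 prior degrees of freedom). It gave the response to miR-29a-3p per line, the difference between responses, and A549 minus H1299 among controls. The fit was also run on simulated data with independent noise and with changes only in genes that were not low. That run does not bear on low members or on whether libraries were grown separately. Fragment totals came from the most frequent step among single-transcript genes under 0.2 FPKM. Across single-transcript genes, 87.1% to 93.1% of estimates were whole within 0.02, so counting error could be judged only roughly. Members have several transcripts, so their fragments, from the longest coding transcript, are approximate.

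Positions and 3′ UTRs are from GENCODE release 29, microRNAs from RefSeq. All 10 members are named. A member was too low to judge in a line if it failed the filter or stayed under 1 FPKM in all 4 libraries. Companion genes are named if called in both lines or among the 2 largest changes of a line at 5 FPKM or more, while RHBDF1, RHBDF2 and TIMP3 were added after their values were seen. Members and lists were chosen with earlier results of these data known. Alternatives covered the pseudocount, filter, scaling, a replicate block, each line alone and leaving out each library.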

Additional observations from a re-analysis of the deposited data

Results flagged for a closer look

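The response to miR-29a-3p differed between the lines, by limma's test of the difference itself (A549 minus H1299), for 3 members. ADAM17 differed by 0.997 ± 0.093 (SE, adjusted p = 0.00059), ADAMTS7 by -1.77 ± 0.104 (SE, adjusted p = 0.00013) and ADAMTS9 by -0.67 ± 0.116 (SE, adjusted p = 0.0057). Over all tested genes, 37.3% were called in this comparison. ADAMTS7 and ADAMTS9 were under 1 FPKM in every library labelled A549 and passed the filter only through those labelled H1299, so these differences rest on a line where both are too low to judge. On log2(FPKM + 0.1) the ADAMTS9 difference was -0.56 and did not pass (adjusted p = 0.16).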

How the results depend on the processing

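The calls of ADAM17, ADAMTS7 and ADAMTS9 labelled H1299 held under every alternative that could test them; ADAMTS7 and ADAMTS9 were not tested with a mean of at least 5 FPKM, nor ADAMTS7 without either H1299 library with miR-29a-3p. A lone remaining library is assumed to vary like the other groups. Called genes labelled A549 numbered 2336, and 1365 with that line alone, 1045 to 1968 with single libraries left out (lowest without A549 control replicate 2) and 1 called member at most (0 to 1). Deviations of same-numbered libraries from their group means correlated at 0.026 (A549) and -0.065 (H1299) over 3823 genes. The numbers were therefore not taken as pairs. The replicate block left 1261 genes labelled A549. In the block fit ADAM9 labelled H1299 had an adjusted p of 0.060. Of the 7 tested members, 5 were called labelled H1299, and 3 of the same 7 with no filter. ADAMTS1, outside these 7 and too low to judge, was also called there with no filter (0.33, limma adjusted p = 0.014). Its difference in response was -0.35 with no filter (limma adjusted p = 0.049). With a mean of at least 5 FPKM, 3773 genes and 2 members were called labelled H1299, 2984 genes and 1 member for the difference, and 4923 genes and 3 members between controls, where fewer genes were tested. Uncalled values changed sign with a pseudocount of 0.1 for ADAMTS10 labelled A549 (-0.027) and the ADAM19 difference (-0.30, and -0.0087 with rescaled libraries); the cause was not tested. With single libraries left out, uncalled values ran from -0.055 to 0.039 (ADAM9), -0.019 to 0.18 (ADAM10) and -0.065 to 0.068 (ADAMTS10) labelled A549, -0.058 to 0.065 (ADAMTS10) labelled H1299, and for the difference -0.19 to 0.0047 (ADAM10), -0.12 to 0.14 (ADAM19) and -0.069 to 0.064 (ADAMTS10). ADAM12, ADAMTS1 and ADAMTS6 failed the FPKM filter; depth was not tested as their limit.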
